A study of Mus musculus with 12 samples.

Results

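The genes of adenosine signalling and adenosine turnover were examined in the striatum of TAAR5-KO and wild-type mice. They were picked by gene name from the table of counts, and all 9 were present among its 57132 features: 3 adenosine receptors (Adora1, Adora2a and Adora2b), 3 ectoenzymes that break down extracellular nucleotides (Entpd1, Entpd2 and Nt5e), the adenosine kinase gene Adk, and the nucleoside transporters Slc29a1 and Slc29a2. The choice went by name, but it was made with earlier results of these data known.

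Adenosine is released into the extracellular space or formed there from ATP. Ectonucleotidases such as the Entpd1 product (CD39) remove phosphates from ATP and ADP, and the Nt5e product (CD73) turns the resulting AMP into adenosine. Equilibrative transporters carry adenosine across the membrane in either direction, and adenosine kinase, which in the adult brain is mainly an astrocytic enzyme, converts it back to AMP inside the cell. In the striatum the receptor encoded by Adora2a is a known feature of the spiny neurons that carry the D2 dopamine receptor, where it raises cAMP and opposes dopamine, while the receptor encoded by Adora1 is widespread and lowers cAMP and transmitter release. Both are targets of caffeine.

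The data were whole-number counts per gene from RNA sequencing of 12 striatal libraries, 6 labelled TAAR5-KO (NK1 to NK6) and 6 labelled TAAR5-WT (NK7 to NK12). TAAR5-KO mice carry a knockout of Taar5, the gene of a trace amine-associated receptor, and the wild-type mice were their littermates. All were C57Bl/6 animals 10 months old and had no other stated allele or treatment. The striatum was what remained of a coronal slice after its cortex had been cut away, so it was a mixture of cell types. In such bulk tissue, fewer cells of a type and less RNA per cell cannot be told apart. Both sexes were used according to the methods, but the labels tie no library to a sex or an animal.

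Library totals ran from 11269915 to 34824450 counts. Ribosomal RNA features, a set that here also held the gene Lars2, took 65.8% to 90.2% of them. This left between 1438667 and 6092873 counts for other genes. Levels are given as CPM, read counts brought to a common library size, with sizes scaled by TMM factors of 0.375 to 2.47, and 3 counts, the floor used here for detection, corresponded to 0.0679 to 0.362 CPM. The Taar5 gene itself was counted 1 to 6 times in each library labelled TAAR5-KO and 0 to 2 times in each labelled TAAR5-WT (exact permutation test, two-sided, p = 0.00649), which goes against the labels, so every direction below is given between labels. Only NK6 exceeded the floor of 3 Taar5 counts, so this difference rests on values at the limit of detection and cannot decide whether the labels are right. Whether these reads came from a part of the gene outside the deletion was not tested. The defining markers of D1 and D2 spiny neurons were all detected in every library. Choroid plexus markers summed to 2.68 to 8.07 CPM in NK1, NK2, NK3, NK6 and NK12 and to at least 113 CPM in the other 7 libraries, so the libraries fell into a pair of clusters for that tissue. The cluster of low sums held 4 libraries labelled TAAR5-KO and 1 labelled TAAR5-WT, and that of high sums held 2 and 5, so the clusters were unevenly spread over the labels. Cortical pyramidal neuron markers also varied, with sums of 25.2 to 93.6 CPM under TAAR5-KO labels and 31.3 to 102 CPM under TAAR5-WT labels.

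None of the adenosine genes differed between the labels past the threshold, which was an adjusted p under 0.1 by the likelihood ratio test of edgeR. Of the 9 genes, 7 passed the filter on low counts (at least 0.5 CPM in at least 3 libraries, on library totals before TMM scaling). Of these 7, 0 were called, against 1.65% of all 13902 features tested. The quasi-likelihood test of edgeR also called 0, against 0.453% of all features. In the likelihood ratio test, 0 of the 7 genes had an unadjusted p under 0.05, against 1657 of all 13902 features, and the lowest was 0.174 for Adk. In 0 of the 9 genes did the values of the labels fail to overlap, a pattern seen in 1.01% of tested features. With TMM scaling, 6 of the 7 estimates lay above 0 with a median of 0.13 on the log2 scale, where the median of every tested feature was -0.01. With library totals alone as the scaling, the median of all features moved to -0.49 and all 7 estimates lay below 0.

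**Figure D1:**
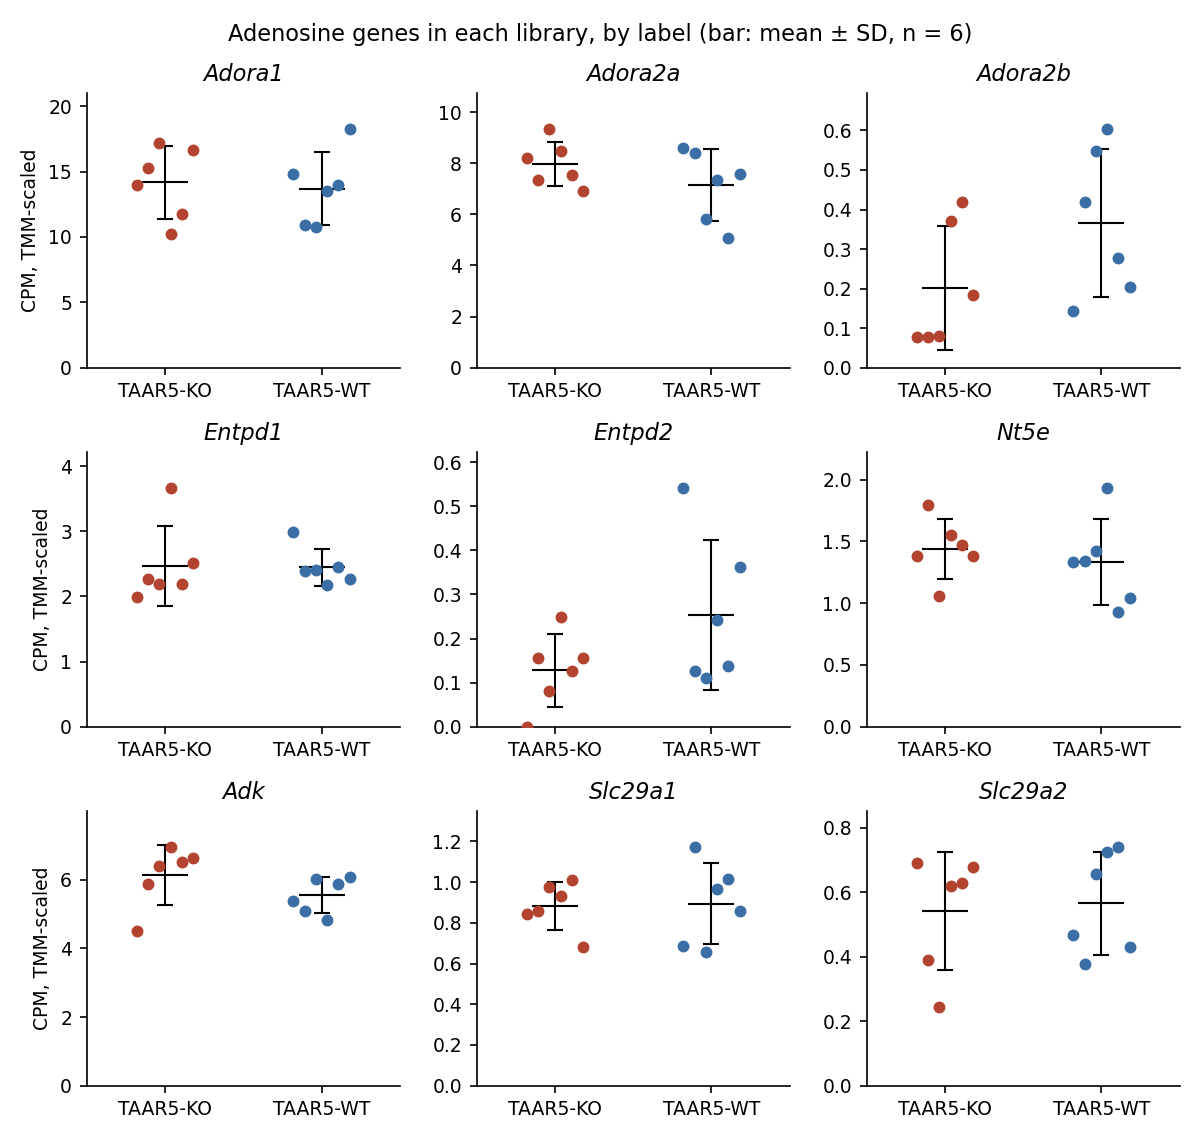
Each panel plots 1 adenosine gene in CPM on a linear axis from 0, with 1 point per library (red, labelled TAAR5-KO; blue, labelled TAAR5-WT) and a bar for the mean ± SD of 6 libraries. The labels overlap in all 9 panels, and a single library stands above the others for Entpd1 under each label.

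Adora1 (ENSMUSG00000042429.10), the inhibitory receptor, lies on the minus strand of chromosome 1 at chr1:134126963-134163169 (GRCm39). It was the most counted of the receptors. Its level ran from 10.2 CPM through a median of 14.6 to 17.2 CPM under TAAR5-KO labels, and from 10.7 through 13.8 to 18.2 CPM under TAAR5-WT labels. The ranges covered nearly the same interval, and the means were 14.2 ± 2.76 and 13.7 ± 2.77 CPM (SD, n = 6 each). The fitted difference was 0.04 on the log2 scale (SE 0.15, 95% interval -0.25 to 0.32, adjusted p = 0.955 by the likelihood ratio test). A change to below 0.840-fold or above 1.25-fold lay outside the interval of this fit, which had no covariates. The spread of Adora1 within a label was a coefficient of variation of 19.9%, where counting error alone would give 6.52%. Exons of Mybph on the opposite strand overlap 20.1% of the exonic bases of Adora1, and the strand setting of the counting is not given in the sources used here, so reads in that stretch may belong to either gene.

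The library-to-library spread of Adora1 followed the cortical pyramidal neuron markers. NK4 and NK9, the libraries with the lowest Adora1 under their labels (10.2 and 10.7 CPM), had the lowest sums of these markers in each label, and NK12, with the highest Adora1 of all (18.2 CPM), had the highest sum. Over the 12 libraries the log2 levels correlated with a Pearson r of 0.92 (permutation p = 9e-05) and a Spearman rho of 0.97 (permutation p = 1e-05, the smallest that the resamples can give). This pair was found by examining all 77 relations of the 7 tested genes with 11 of the 12 marker lists, after the data had been seen (the choroid plexus list was left out, since its libraries fall into clusters), and it had the lowest Benjamini–Hochberg adjusted permutation p (0.00693 for r), with no other of these 77 relations under 0.05. Without NK4 and NK9, which were farthest from the median of the markers, r was 0.85, and within the labels it was 0.98 for TAAR5-KO and 0.84 for TAAR5-WT. The libraries share their scaling, and no cell type was assigned from it. With the cortical markers as a covariate, the Adora1 log2 fold change was 0.03 with its SE reduced from 0.15 to 0.09, still without a call. The 5 cortical markers held 0 called genes, and none was at 0 in any library.

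Adora1 also moved with the choroid plexus split. It ran from 13.9 to 18.2 CPM in the 5 libraries of low choroid plexus sums and from 10.2 to 14.8 CPM in the 7 of high sums. The cortical marker sums were 52.2 to 102 CPM in the first cluster and 25.2 to 83.5 CPM in the second. Within the 7 libraries of the second cluster the relation to the cortical markers remained at r = 0.81 (exact permutation p = 0.0306) and rho = 0.86 (exact permutation p = 0.0238), and no value is given for the first cluster, which held fewer than 6 libraries. In that second cluster NK4 and NK5 had 10.2 and 11.7 CPM of Adora1 against 10.7 to 14.8 CPM in the 5 TAAR5-WT libraries, and in the first the 4 TAAR5-KO libraries (13.9 to 17.2 CPM) lay below the single TAAR5-WT library (18.2 CPM). With the split as a term in the fit, chosen after the data had been seen, the Adora1 estimate turned to -0.22 (SE 0.11, adjusted p = 0.366 by the likelihood ratio test), still without a call. The interval given above for Adora1 holds only for the fit without this term. The part of dissection in this pattern was not tested.

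**Figure D2:**
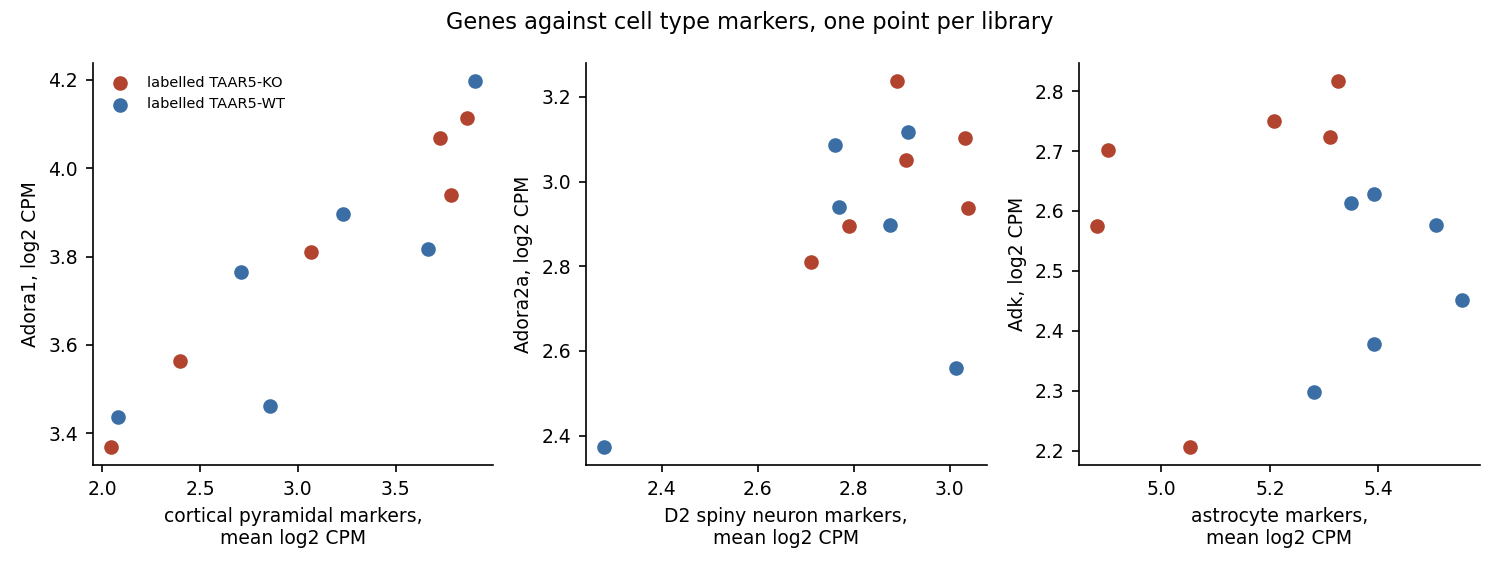
Each point is 1 library (red, labelled TAAR5-KO; blue, labelled TAAR5-WT), and both axes are log2 CPM, with the mean over a marker list on the horizontal axis. Adora1 follows the cortical pyramidal markers across libraries of both labels (r 0.92), Adora2a follows the D2 spiny neuron markers mainly through NK11 at the lower left, and 5 of 6 red points have a higher ratio of Adk to astrocyte markers than any blue point.

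Adora2a (ENSMUSG00000020178.7), the receptor of D2 spiny neurons, lies on the plus strand of chromosome 10 at chr10:75152711-75170618, which is 51.3 Mb from Taar5 on the same chromosome. It ranged from 6.92 through a median of 7.88 to 9.33 CPM under TAAR5-KO labels and from 5.09 through 7.47 to 8.58 CPM under TAAR5-WT labels. NK3 lay above every TAAR5-WT library, and NK9 and NK11 lay below every TAAR5-KO library. The means were 7.98 ± 0.877 and 7.14 ± 1.41 CPM (SD, n = 6 each). The difference fitted was 0.13 on the log2 scale (SE 0.13, 95% interval -0.13 to 0.39, adjusted p = 0.756), which left changes from 0.916-fold to 1.31-fold within the interval.

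Set against the D2 spiny neuron markers of the same library, Adora2a did not differ detectably between the labels. The log2 ratio of Adora2a to the mean of 5 such markers differed by 0.05 (SE 0.13; exact permutation test, two-sided, p = 0.753, adjusted p = 0.904 over 6 ratios). The paper's deconvolution had given a higher share of D2 spiny neurons in TAAR5-KO striatum. None of the 5 markers was called here, and 4 of their 5 estimates lay above 0, with a median of 0.16 on the log2 scale. Their sums were 94.2 to 116 CPM under TAAR5-KO labels and 59.1 to 102 CPM under TAAR5-WT labels. Only NK11 was below 90 CPM in that sum, and it also held the lowest Adora2a. The correlation of Adora2a with the D2 markers was r = 0.58 (permutation p = 0.0602, adjusted p = 0.137 over 6 relations) and rho = 0.38 (permutation p = 0.226), and without NK6 and NK11, the libraries farthest from the median of the markers, r was -0.21, so the relation rests on those libraries. Without NK11 alone r was -0.03. Adora2a stood at 0.389 to 0.594 of the level of Drd2 per length under TAAR5-KO labels and at 0.416 to 0.643 under TAAR5-WT labels, overlapping intervals.

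Adora2b (ENSMUSG00000018500.3; plus strand, chr11:62139810-62157279), a receptor with low affinity for adenosine, was close to the limit of detection and did not pass the filter. It had 1, 1, 1, 6, 10 and 7 counts in NK1 to NK6 and 4, 10, 5, 5, 6 and 9 counts in NK7 to NK12. The detection floor of 3 counts was not exceeded in 3 TAAR5-KO libraries, while it was exceeded in all 6 TAAR5-WT libraries. In CPM the means were 0.202 ± 0.157 and 0.366 ± 0.187 (SD, n = 6 each; exact permutation test, two-sided, p = 0.141), and at this depth no difference was detectable. Adora2b also moved with the choroid plexus split, with 0.0766 to 0.204 CPM in the cluster of low sums and 0.144 to 0.603 CPM in that of high sums, and in the latter NK4 and NK5 (0.372 and 0.420 CPM) lay inside the TAAR5-WT range.

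Of the ectoenzymes, Entpd1 was the most counted. Entpd1 (ENSMUSG00000048120.17; plus strand, chr19:40600810-40730046) ranged from 1.99 through a median of 2.23 to 3.66 CPM under TAAR5-KO labels and from 2.17 through 2.40 to 2.99 CPM under TAAR5-WT labels. NK4 stood at 3.66 CPM, above every other library, and the other 5 TAAR5-KO libraries lay between 1.99 and 2.51 CPM. The means of 2.47 ± 0.608 and 2.45 ± 0.288 CPM (SD, n = 6 each) gave a log2 fold change of 0.01 (SE 0.16, 95% interval -0.31 to 0.32, adjusted p = 0.994), and without NK4 it was -0.12.

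In brain, CD39 is a known surface enzyme of microglia. Of the 8 microglial markers 2 were called lower (0.691% of all features were called lower), all 8 estimates lay below 0, and their summed level did not overlap, at 22.3 to 31.8 CPM under TAAR5-KO labels and 33.3 to 38.9 CPM under TAAR5-WT labels. None of the 8 was at 0 in any library. The quasi-likelihood test called 0 of them. With TMM scaling, Entpd1 itself differed by -0.01 in log2 CPM where the mean of these markers differed by -0.35. The log2 ratio of Entpd1 to the markers was thus higher by 0.34 under TAAR5-KO labels (SE 0.13; exact permutation test, two-sided, p = 0.0195), with 5 of 6 TAAR5-KO libraries above every TAAR5-WT library. It did not pass the correction over 6 ratios (adjusted p = 0.0584), and with 1 library left out the adjusted exact permutation p was 0.0130 without NK5 and between 0.0649 and 0.143 without each of the other 11 libraries. The ratio was 0.25 without NK4, where Entpd1 was highest. In the cluster of high choroid plexus sums the ratios of NK5 and NK4 (-0.45 and 0.44) lay on either side of the 5 TAAR5-WT libraries (-0.39 to -0.28). Over all libraries, Entpd1 correlated with the microglial markers at r = 0.34 (permutation p = 0.273) and rho = 0.29 (permutation p = 0.364). Without NK3 and NK7 r was 0.04, and within the labels it was 0.34 for TAAR5-KO and 0.83 for TAAR5-WT. Its highest r with any of the 11 lists was 0.68, for leptomeningeal fibroblast markers (adjusted permutation p = 0.342 over 77 relations).

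Nt5e (ENSMUSG00000032420.9; plus strand, chr9:88209250-88254145), the gene of CD73, makes the last step to extracellular adenosine. It ranged from 1.06 through a median of 1.43 to 1.80 CPM under TAAR5-KO labels and from 0.925 through 1.34 to 1.93 CPM under TAAR5-WT labels, so the TAAR5-WT range enclosed the other. On the log2 scale Nt5e differed by 0.21 (SE 0.19, 95% interval -0.16 to 0.59, adjusted p = 0.704). With 13 to 53 counts per library, the spread within a label (21.8%) was close to what counting error alone gives (21.7%). Against the D2 spiny neuron markers the log2 ratio of Nt5e was -2.29 under both labels (exact permutation p = 0.978).

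Entpd2 (ENSMUSG00000015085.9; plus strand, chr2:25285886-25291333), which makes ADP from ATP, had 0, 2, 1, 4, 3 and 6 counts in NK1 to NK6 and 15, 3, 1, 2, 3 and 16 counts in NK7 to NK12. Under each label, 4 of 6 libraries were at or under 3 counts, and the gene did not pass the filter. NK7 and NK12 held most of the TAAR5-WT counts. The means of 0.128 ± 0.0832 and 0.253 ± 0.170 CPM (SD, n = 6 each) did not differ detectably at this depth (exact permutation test, two-sided, p = 0.149). Exons of Npdc1 on the same strand overlap 28.8% of its exonic bases, and those reads are uncertain.

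Adk (ENSMUSG00000039197.11; plus strand, chr14:21102642-21498637), the kinase that clears adenosine inside cells, ranged from 4.52 through a median of 6.46 to 6.95 CPM under TAAR5-KO labels and from 4.82 through 5.62 to 6.09 CPM under TAAR5-WT labels. Of the TAAR5-KO libraries 4 lay above every TAAR5-WT library and 1, NK1, lay below all of them. The means were 6.15 ± 0.873 and 5.55 ± 0.525 CPM (SD, n = 6 each), with a log2 fold change of 0.15 (SE 0.11, 95% interval -0.07 to 0.38, adjusted p = 0.627). Changes from 0.954-fold to 1.30-fold were within the interval.

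The ratio of Adk to astrocyte markers was higher under TAAR5-KO labels, with TMM scaling more through lower markers than through higher Adk. The paper's deconvolution had already given slightly fewer astrocytes in TAAR5-KO striatum, and the marker lists were chosen with earlier results known. The log2 ratio of Adk to the mean of 8 astrocyte markers was -2.48 ± 0.226 under TAAR5-KO labels and -2.92 ± 0.144 under TAAR5-WT labels (SD, n = 6 each), a difference of 0.44 (SE 0.11; exact permutation test, two-sided, p = 0.00649, adjusted p = 0.0390 over 6 ratios). All 6 TAAR5-KO libraries were above the TAAR5-WT median, and 5 were above every TAAR5-WT library. With TMM scaling, 0.14 of the difference came from Adk, which did not itself pass the test, and the mean of the markers differed by -0.30. With library totals as the only scaling the fitted Adk estimate was -0.28, so this split depends on the scaling. Among the 8 astrocyte markers 1 was called lower by the likelihood ratio test (0.691% of all features) and 0 by the quasi-likelihood test (0.453%, either direction). All 8 estimates lay below 0, and none was at 0 in any library. Their sums overlapped, at 1056 to 1253 CPM under TAAR5-KO labels and 1158 to 1367 CPM under TAAR5-WT labels. Slc1a2 alone held 802 to 1071 CPM, so the sums mainly reflect that gene. The mean log2 CPM of the 8 markers ran from 4.88 to 5.33 under TAAR5-KO labels and from 5.28 to 5.55 under TAAR5-WT labels. Only NK10 of the TAAR5-WT libraries lay within the TAAR5-KO range. The ratio stayed between 0.38 and 0.51 when any 1 library was left out, but its adjusted exact permutation p was under 0.05 only without NK1, NK5 or NK9 and lay between 0.0519 and 0.0779 without each of the other 9 libraries. In the cluster of high choroid plexus sums the ratios of NK4 and NK5 (-2.51 and -2.59) lay above those of all 5 TAAR5-WT libraries (-3.10 to -2.74), and in the cluster of low sums 3 of 4 TAAR5-KO libraries lay above the TAAR5-WT library (-2.76). Across the 12 libraries the correlation of Adk with the astrocyte markers was near 0 (r = -0.03, permutation p = 0.939, and rho = -0.08, permutation p = 0.818), with r = 0.22 without NK2 and NK3. Within the labels r was 0.42 for TAAR5-KO and 0.29 for TAAR5-WT (n = 6 each).

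The transporters were lowly counted. Slc29a1 (ENSMUSG00000023942.16; minus strand, chr17:45896126-45910532), the equilibrative transporter sensitive to nitrobenzylthioinosine, had 6 to 38 counts and means of 0.882 ± 0.118 and 0.892 ± 0.199 CPM (SD, n = 6 each) under TAAR5-KO and TAAR5-WT labels. Its fitted log2 difference was -0.06 (SE 0.22, 95% interval -0.50 to 0.37, adjusted p = 0.944), and its log2 ratio to endothelial markers differed by 0.10 (SE 0.16; exact permutation p = 0.524). Slc29a2 (ENSMUSG00000024891.7; plus strand, chr19:5073888-5082000), its less sensitive relative, had 3 to 26 counts and means of 0.542 ± 0.182 and 0.566 ± 0.160 CPM. Its fitted log2 difference was 0.15 (SE 0.28, 95% interval -0.39 to 0.69, adjusted p = 0.891), opposite in sign to the difference of the means. For both genes the spread within a label was below the counting error expected at these counts, so the depth limited what could be seen.

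Placed on a common scale of CPM per kilobase of merged exons, the 9 genes spanned a wide range. Over all 12 libraries the mean level was 2.47 ± 0.392 for Adora2a and 2.41 ± 0.459 for Adora1 (SD, n = 12), followed by Adk at 0.686, Entpd1 at 0.440, Slc29a1 at 0.221, Slc29a2 at 0.184, Nt5e at 0.161, Adora2b at 0.154 and Entpd2 at 0.0895. Adora2a was above Adora1 in 8 of 12 libraries, with a mean log2 difference of 0.04 and an SD of 0.35, so these receptors could not be ranked. Adora1 was above Adk, Adk above Entpd1 and Entpd1 above Slc29a1 in 12 of 12 libraries. From Slc29a1 down, neighbours exchanged places in 3 to 6 of the 12 libraries and did not differ beyond their spread. The balance of the main receptors overlapped between the labels, since the ratio of Adora1 to Adora2a ran from 0.638 to 1.28 under TAAR5-KO labels and from 0.688 to 1.46 under TAAR5-WT labels.

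**Figure D3:**
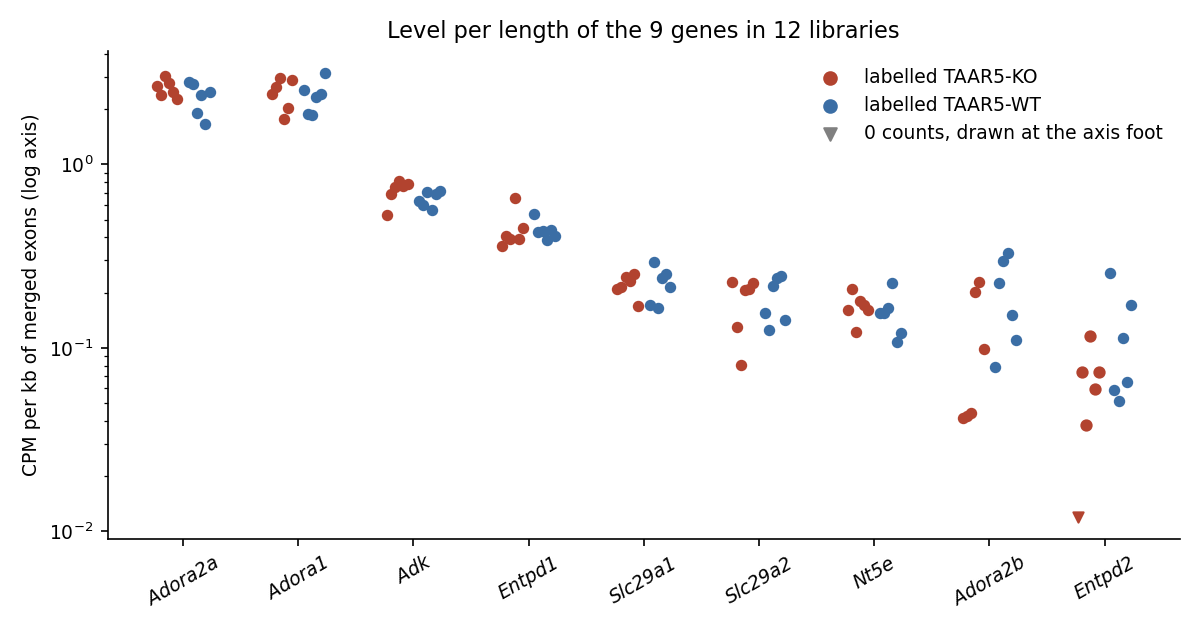
The vertical log axis gives CPM per kilobase of merged exons, with the 9 genes ordered by their mean and 1 point per library (red, labelled TAAR5-KO; blue, labelled TAAR5-WT; a triangle marks 0 counts). Adora2a and Adora1 share the top near 2.4 CPM per kilobase, Adk and Entpd1 follow, and the 5 lowest genes overlap one another.

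The features whose log2 level was most like that of each adenosine gene were listed for the 5 genes with a median of at least 20 counts. The likeness is Pearson's r over the 12 libraries, which share scaling and dissection, and each feature was picked as the highest of all tested, so it is a description. For Adora1 they included Extl1 (r 0.95) and Fbxw7 (0.95). For Adora2a they were Prkar2b (0.92), which encodes a regulatory subunit of protein kinase A, Bcl11b (0.85), a transcription factor of spiny neurons, and Tmtc1 (0.83). Nt5e was most like Stk32a (0.88), Shtn1 (0.86) and Pelp1 (0.85), Adk most like Ppil6 (0.86), Tor1a (0.86) and Trappc2 (0.85), and Entpd1 most like Ap1m1 (0.84), Cavin1 (0.84) and Pias3 (0.83). Leaving out 1 library lowered r to 0.54 for Pias3 and to 0.66 for Bcl11b, while the lowest for Extl1 and Fbxw7 was 0.94.

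A wider list of 65 purine genes was read in the same fit. Of these, 44 were tested, 0 were called higher and 2 were called lower (0.957% and 0.691% of all features were called higher and lower), with a median log2 fold change of -0.07. The quasi-likelihood test called 0 of the 44. In the likelihood ratio test 4 of the 44 had an unadjusted p under 0.05, as did 1657 of all 13902 features. The other adenosine receptor gene, Adora3, reached at most 7 counts and was not tested. The 8 genes that couple the receptors to cAMP held 0 calls: Gnao1, a G protein subunit of inhibitory receptors, was the most expressed per length, and Gnal and Adcy5, the G protein subunit and adenylyl cyclase through which the Adora2a receptor acts in the striatum, had estimates of 0.10 (adjusted p = 0.791) and 0.17 (adjusted p = 0.639). Of the 8 estimates 6 lay above 0 and 2 below. Gnai2, another G protein subunit, had the lowest adjusted p of the 8 (0.133 by the likelihood ratio test), with an estimate of -0.26. In Gnai2, 5 TAAR5-KO libraries lay below every TAAR5-WT library. Among the P2 nucleotide receptors P2ry12 was the most expressed and was called. In the other 7 roles the most expressed genes were Entpd5, Nt5c, Gda, Hprt1, Ahcyl1, Slc29a4 and Panx2, none of them called.

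Enpp1, an ectoenzyme that hydrolyses extracellular ATP to AMP and pyrophosphate, was the gene of the list with the lowest adjusted p. It ranged from 0.406 through a median of 0.762 to 0.868 CPM under TAAR5-KO labels and from 0.973 through 1.27 to 1.53 CPM under TAAR5-WT labels. The labels did not overlap, a pattern seen in 1.01% of all tested features. P2rx7 of the same list did not overlap either and was not called (adjusted p = 0.165 by the likelihood ratio test). For Enpp1 the fitted log2 difference was -0.82 (SE 0.22, adjusted p = 0.0304 by the likelihood ratio test and 0.115 by the quasi-likelihood test). The call was lost without NK3, NK7 or NK11, at -0.74, -0.77 and -0.79, and Enpp1 had only 5 to 43 counts per library. With the choroid plexus split as a term the estimate was -0.73 (adjusted p = 0.0861). Enpp1 lies on chromosome 10 at chr10:24513812-24588057, 666 kb from Taar5. Within 1 Mb of Taar5, 2 of 8 tested features were called, Enpp1 among them, against 1.65% of all features tested. Whether the position bears on the difference was not tested.

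P2ry12, the ADP receptor that is itself a defining gene of microglia, ranged from 7.14 through a median of 9.09 to 10.4 CPM under TAAR5-KO labels and from 8.56 through 11.5 to 13.3 CPM under TAAR5-WT labels, so the labels overlapped. Fitted on the log2 scale it differed by -0.36 (SE 0.11, adjusted p = 0.0767 by the likelihood ratio test and 0.180 by the quasi-likelihood test), and it was called in only 3 of the 12 fits that left out 1 library, those without NK4, NK9 or NK10, while the estimate ran from -0.41 to -0.30 over the 12 fits. With the choroid plexus split as a term the estimate was -0.37 (adjusted p = 0.0922). The microglial marker sums given for Entpd1 were lower under the same labels, and their part in this result was not tested.

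**Figure D4:**
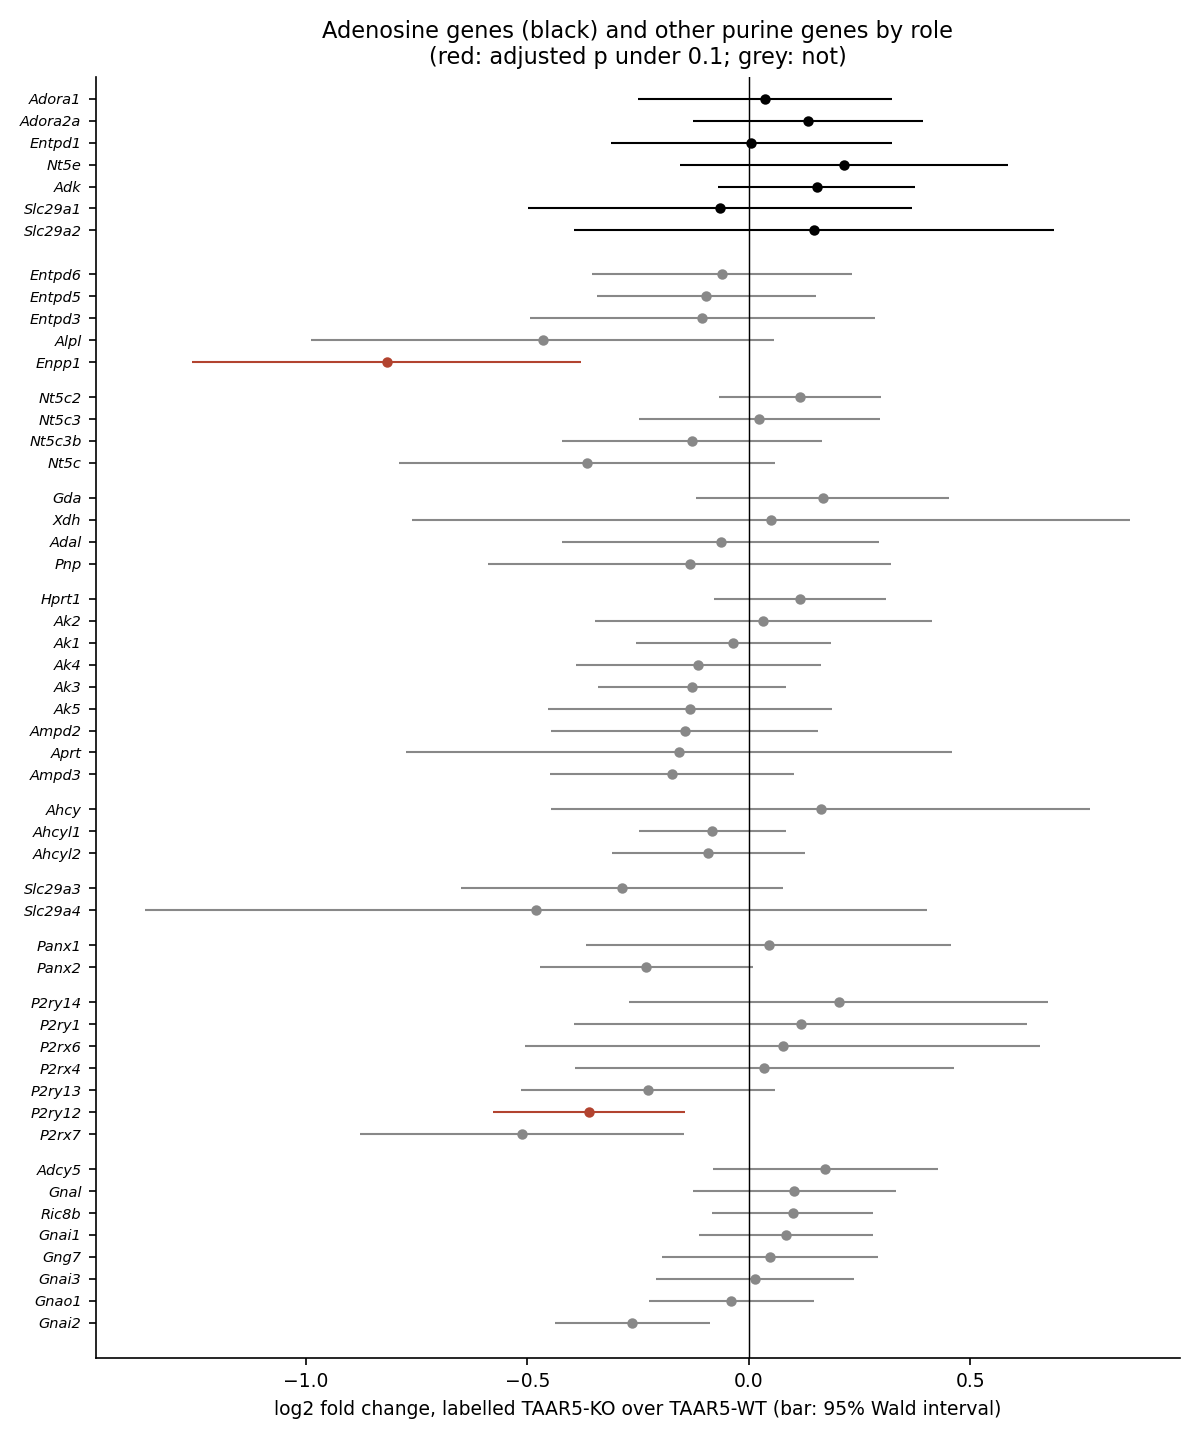
Points are log2 fold changes of libraries labelled TAAR5-KO over TAAR5-WT with 95% Wald intervals, for the 7 tested adenosine genes (black) and the 44 tested purine genes grouped by role (red, called; grey, not called). Every black interval crosses 0, and Enpp1 and P2ry12 are the red points, at -0.82 and -0.36.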

How the data were processed

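RNA of 12 mouse striata (6 labelled TAAR5-KO, 6 labelled TAAR5-WT) was depleted of ribosomal RNA by the authors and sequenced as directional libraries. According to the submitters' processing notes and the methods, reads were trimmed with cutadapt 4.1, aligned to GRCm39 with STAR 2.7.11b and assigned to GENCODE M35 genes by featureCounts 2.0.6. What the authors deposited are raw counts per gene, not normalized. Handling of multimapping reads and strand is not given in the sources used here. The 12 columns of libraries that belong to no sample analysed here were not used. Column numbers are not tied to animals, so p-values measure the spread between these libraries. The 30 within-label pairs of libraries all differed by more than sampling noise.

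Features with at least 0.5 CPM in at least 3 libraries were kept (13902), where CPM for this filter was on library totals before TMM scaling. TMM factors, glmFit and glmLRT of edgeR 4.0.16 (R 4.3.3) were used without covariates, with Benjamini–Hochberg adjustment over all features tested and calls at an adjusted p under 0.1, the study's own threshold. The quasi-likelihood test, DESeq2 1.42.0, other scalings, filters and single-library omissions were alternatives. Cortical markers and a split at a choroid plexus sum of 50 CPM were covariates chosen after seeing the data. Ratios and correlations used log2 CPM with a prior count of 2, and exact or 100000-resample permutation tests. Scripts were tested on simulated data. Coordinates, exon overlaps and close copies came from the GENCODE annotation (M35 coordinates in the count table, M39 transcripts for copies).

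Members, purine genes and marker lists were chosen with earlier results of these data known. Besides the 9 genes, the text names called purine genes, the most expressed gene of each purine role, the 3 features most correlated with each gene of at least 20 median counts, and Taar5. Other genes were named after their values were seen. A feature that this rule would name is not reported here.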

Additional observations from a re-analysis of the deposited data

Results flagged for a closer look

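Entpd1 stood out in 1 library under each label. NK4 had 3.66 CPM where the next highest library labelled TAAR5-KO had 2.51, and NK7 had 2.99 CPM where the next highest labelled TAAR5-WT had 2.45. In both cases the gap, as a share of the range of 6 libraries (0.691 and 0.660), was over Dixon's 95% critical value for 6 samples. Of 34 groups of 6 libraries examined, 2 were over it, and chance alone puts about 1 in 20 there.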

How the results depend on the processing

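The count of adenosine genes past the threshold was 0 in every alternative run, leave-one-out fits included. DESeq2 gave no adjusted p for 7009 of the 13902 features, so these could not be called in that run. No DESeq2 result is given here for Nt5e, Slc29a1, Slc29a2, Entpd1 or Enpp1. The standard errors of the 7 tested genes ran from 0.11 to 0.28 on the log2 scale, and Adora2b and Entpd2 stayed near the detection floor. Over all features, 229 calls became 63 with the quasi-likelihood test, 7 with library totals as the only scaling, 93 with no filter, 108 at an adjusted p under 0.05 and, in an alternative chosen after seeing the data, 615 with the cortical markers as a covariate, and 85 to 415 with 1 library left out. The 2 purine genes called became 0 with the quasi-likelihood test, with library totals and with no filter, 1 with ribosomal RNA features removed and 1 at an adjusted p under 0.05, and 0 to 3 with 1 library left out. The adjusted p of Enpp1 ran from 0.0133 to 0.700 over its alternatives and that of P2ry12 from 0.0254 to 0.700. With library totals alone, which moved the median of all features to -0.49, the log2 fold changes turned to -0.58 for Adora1, -0.43 for Adora2a, -0.26 for Nt5e, -0.28 for Adk, -0.30 for Slc29a2, -0.46 for Entpd1, -0.50 for Gda and -0.36 for Hprt1. Entpd1 was -0.022 with no filter and -0.012 with the cortical covariate. With the choroid plexus split as a term, also chosen after seeing the data, 262 features, 0 adenosine genes and 3 purine genes (Enpp1, P2ry12 and Panx2) were called, and the estimate was -0.22 for Adora1, 0.00058 for Slc29a1, -0.071 for Gda and 0.084 for Slc29a4. With 1 library left out, the estimate ran from -0.027 to 0.14 for Adora1, -0.15 to 0.057 for Slc29a1, -0.12 to 0.086 for Entpd1 and -0.062 to 0.0079 for Gnao1, none of them called. The log2 ratio to D2 spiny neuron markers differed by -0.053 to 0.10 for Adora2a and by -0.087 to 0.084 for Nt5e, that to astrocyte markers by 0.38 to 0.51 for Adk, and that to microglial markers by 0.25 to 0.43 for Entpd1. The Nt5e ratio, -0.0023 as reported, was 0.0043 with a prior count of 0.5 and 0.029 with library totals. With library totals the correlations with the marker lists rose to 0.98 for Adora2a, 0.96 for Nt5e, 0.97 for Adk, 0.90 for Entpd2, 0.97 for Entpd1 and 0.95 for Slc29a1, since every feature then carries the same library scale. With 1 library left out, r ran from -0.032 to 0.83 for Adora2a and from -0.27 to 0.12 for Adk. Without division by exon length, 4 of the 9 genes kept their place in the order of levels. Apart from the scaling alternative just named, the cause of these shifts was not tested. No paired analysis was possible because the count columns carry library numbers that the labels do not tie to the animal numbers.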
